A study of Homo sapiens with 8 samples.

Results

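Aminoacyl-tRNA synthetases of the cytosol were examined in 2 breast cancer cell lines after transfection with HSD17B14. The members were 10 listed genes, taken from the array table where a probe set (the group of short probes that measures a transcript) is annotated with exactly 1 gene symbol. This found 9 members, each with 1 probe set, out of 7713 named genes in all. They were WARS1 (200629_at), CARS1 (212971_at), IARS1 (204744_s_at), YARS1 (212048_s_at), EPRS1 (200843_s_at), AARS1 (201000_at), GARS1 (208693_s_at), NARS1 (200027_at) and SARS1 (200802_at). MARS1 was left out because its probe set carries a second symbol, that of a microRNA gene. The 8 arrays fell into 4 groups of 2, namely ZR75-1 cells (ER-positive by label) with the HSD17B14 plasmid or with the empty vector, and SKBR3 cells (ER-negative by label) with the plasmid or with the vector. HSD17B14 encodes a 17-beta-hydroxysteroid dehydrogenase, an enzyme that oxidises steroids. All cells, controls included, received plasmid DNA with the FuGene-6 reagent 24 h after seeding in phenol-red free medium with 4% serum, and all were harvested 48 h after transfection. The transfection was transient, each line stands for 1 tumour, and nothing in the labels says whether the duplicates came from separate cultures. The p-values therefore reflect the scatter among these arrays, which may be technical.

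An aminoacyl-tRNA synthetase joins an amino acid to its transfer RNA, the step that sets which amino acid a codon stands for. The enzymes fall into class I, which here holds the tryptophan (WARS1), cysteine (CARS1), isoleucine (IARS1) and tyrosine (YARS1) enzymes, and class II, with the alanine (AARS1), glycine (GARS1), asparagine (NARS1) and serine (SARS1) enzymes. EPRS1 carries a glutamate enzyme of class I and a proline enzyme of class II in a single chain. EPRS1, IARS1 and several others sit in the multi-synthetase complex. Many cytosolic synthetase genes are known targets of ATF4, the transcription factor of the amino acid and stress response, while WARS1 is known for its induction by interferons.

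HSD17B14 itself stood at 650.7 and 743.6 on the plasmid arrays of the SKBR3-labelled cells against 2 and 4.2 on their controls, and at 107.5 and 135.3 against 17.8 and 2.1 in ZR75-1. The arrays labelled SKBR3 had ERBB2 signals of 25.9 to 46.8, lower than the 95.9 to 226 in ZR75-1, although SKBR3 cells are known for amplified ERBB2. They also had VIM, the mesenchymal filament vimentin, at 3646.2 to 5325.8 against 0.4 to 25.7, and CDH1, epithelial cadherin, at 26.8 to 58.1 against 1074.7 to 1508.4. These arrays are therefore called SKBR3-labelled. The epithelial keratin KRT18 ran from 2786.8 to 4602.3 on them and from 7006.5 to 9893.8 in ZR75-1. Limma called all 13 luminal epithelial markers, KRT18 among them, higher in ZR75-1 over both plasmids (median log2 difference 2.38), as for 23% of all probe sets. Summed signals of the 13 were 5870.8 to 7533.8 on the SKBR3-labelled arrays against 20853 to 24469.2 in ZR75-1. The blood cell marker PTPRC lay at 0.9 to 16.2 throughout, CD3E at 3.9 to 25.4 and HBB at 8.3 to 34.7. Summed signals of the 8 measured blood cell markers were 52.5 to 106.9. Of the 8, 2 passed the filter on both arrays in the SKBR3-labelled vector group and 1 in each other group. Summed signals of 11 mesenchymal markers were 3743.7 and 3747.3 on the plasmid arrays against 4716.4 and 5525 in the SKBR3-labelled cells (89 to 156.1 in ZR75-1). VIM alone made up 3675.6 and 3646.2 of these sums with the plasmid and 5325.8 and 4637.6 without it, and in each SKBR3-labelled group 3 of the 11 markers passed the filter on both arrays. COL1A1, a fibroblast collagen, had the opposite order between lines, 21.8 to 50.4 in ZR75-1 and 3.4 to 14.4 in the other cells. The markers' part in the results was not tested. In bulk RNA, fewer cells that express a gene and less of its RNA per cell cannot be told apart. In limma's fit over 6251 probe sets, calls with the plasmid were 46 higher and 49 lower in ZR75-1 (18 and 5 with median centring of the arrays), and 76 higher and 18 lower on average over both lines (73 and 3 with median centring). Median centring also moved the median change of all probe sets in ZR75-1 from -0.04 to 0.16 on the log2 scale. All 9 members passed the filter on low values, on 8 of 8 arrays each, and lay between the 82.3rd and the 98.1st percentile of their array's signals. Duplicates of a group differed by a median of 0.12 on the log2 scale for the members, against 0.32 for all tested probe sets.

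The windows before the start sites of 3 members are shown because they hold matches to the elements of the interferon route (WARS1) or of the ATF4 route (IARS1 and AARS1) upstream of the start. GARS1, whose window is not shown, also had an upstream match to the ATF4 element, TTTCATCA at -33 to -26. The promoter windows of RefSeq (GRCh38.p14) run from 250 bases before to 50 bases after a gene's start, and 8 of the 9 measured members had at least 1 window, 12 windows in all; YARS1 had none in the table. Searched on both strands were the interferon-stimulated response element (GAAA, any 2 bases, GAAA) and the C/EBP-ATF element that ATF4 can bind (TGATGNAA). The 250 bases before the start are printed 5′ to 3′ along the gene, with motif matches in capitals.
WARS1, chr14:100375348-100375597, minus strand: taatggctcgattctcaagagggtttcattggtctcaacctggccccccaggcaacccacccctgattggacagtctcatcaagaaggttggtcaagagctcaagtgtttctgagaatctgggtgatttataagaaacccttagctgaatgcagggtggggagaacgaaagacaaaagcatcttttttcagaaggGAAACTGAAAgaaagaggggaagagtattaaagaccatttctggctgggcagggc
IARS1, chr9:92293698-92293947, minus strand: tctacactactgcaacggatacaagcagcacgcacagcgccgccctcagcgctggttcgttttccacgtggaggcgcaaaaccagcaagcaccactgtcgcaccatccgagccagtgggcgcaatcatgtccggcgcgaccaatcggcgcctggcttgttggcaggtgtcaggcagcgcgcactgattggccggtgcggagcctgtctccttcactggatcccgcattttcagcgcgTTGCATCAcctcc
AARS1, chr16:70289507-70289756, minus strand: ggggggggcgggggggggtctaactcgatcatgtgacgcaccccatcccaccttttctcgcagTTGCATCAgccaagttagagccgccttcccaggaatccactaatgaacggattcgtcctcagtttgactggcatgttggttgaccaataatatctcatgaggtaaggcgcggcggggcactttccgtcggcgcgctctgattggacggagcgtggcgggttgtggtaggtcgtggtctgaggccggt
In the WARS1 window the capitals are GAAACTGAAA, the interferon-stimulated response element, at -55 to -46. This window belongs to the start site inside the gene; the window of the other WARS1 start held neither motif. In IARS1 and AARS1 the capitals are TTGCATCA, the C/EBP-ATF element read on the opposite strand, at -13 to -6 and at -187 to -180. Of the 8 members 1, WARS1, had an interferon element, a motif found in 3.57% of all 35116 windows. The C/EBP-ATF element was in a window of 5 of the 8 members, namely AARS1, CARS1, GARS1, IARS1 and NARS1, and in 3.62% of all windows. Both shares count windows and not genes, and a member with 2 windows had more chances of a match. Of 52 windows of the interferon-induced genes listed for comparison, 30 held the interferon element (57.7%). A match is a string of letters and does not show that a factor binds there.

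WARS1, the tryptophan enzyme, was the member that rose with the plasmid, and it did so in the SKBR3-labelled cells. On the HSD17B14 arrays of that line its signals were 535.3 and 532.2, and on the vector arrays 324.9 and 204.8. The groups did not overlap, although the vector arrays lay further apart than the duplicates of any other group and member (0.67 on the log2 scale). The fitted change was 1.05 ± 0.20 on the log2 scale (SE, n = 2 arrays per group), a 2.07-fold rise with a 95% interval of 1.53 to 2.80 (limma, adjusted p = 0.0268). In ZR75-1 the WARS1 signals were 533.7 and 511 with HSD17B14 and 480.3 and 395 with the vector. These did not overlap either, but the log2 change of 0.26 ± 0.20 did not pass (limma, adjusted p = 0.528), with an interval of -0.17 to 0.70. It was 0.12 without ZR75-1 vector array 2, 0.40 without vector array 1 and 0.47 with median centring. WARS1 thus ran from 511 to 535.3 over the 4 plasmid arrays and lower on the vector arrays, lowest in SKBR3-labelled cells. The line effects differed by -0.79 ± 0.28 (ZR75-1 minus SKBR3-labelled), which did not pass (limma, adjusted p = 0.281), and by -0.45 without SKBR3-labelled vector array 2 or -1.12 without vector array 1. Averaged over both lines, WARS1 rose by 0.66 ± 0.14 (n = 4 arrays per arm, limma, adjusted p = 0.0461). Within each line both plasmid arrays lay above both vector arrays, as for 4.82% of all probe sets. For WARS1 all 4 plasmid arrays also lay above all 4 vector arrays, a stricter state whose share was not counted.

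**Figure D1:**
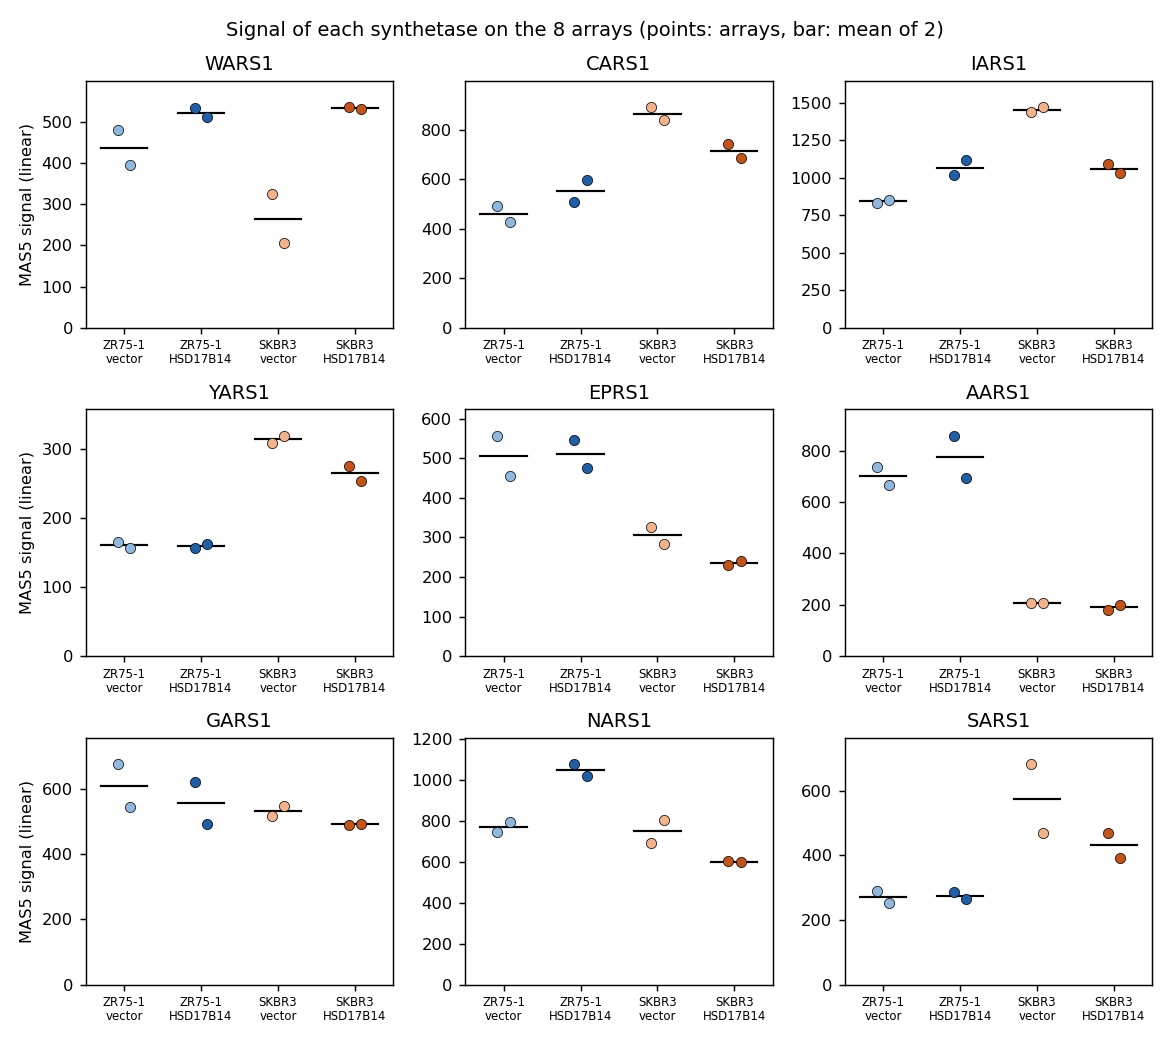
MAS5 signal of each of the 9 synthetases on a linear axis from 0, with 2 points per group (arrays) and a bar at their mean. WARS1 lies between 511 and 535.3 on all plasmid arrays and at 204.8 and 324.9 on the SKBR3-labelled vector arrays, while AARS1 separates the lines whatever the plasmid.

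The call for WARS1 in the SKBR3-labelled cells was near the threshold. Its change was 0.72 without vector array 2 (adjusted p = 0.0710) and 1.38 without vector array 1 (adjusted p = 0.00324) in limma. It passed in 3 of the 8 fits that left out an array, and did not pass without plasmid array 1 or 2 of that line (adjusted p = 0.204 and 0.191) or without ZR75-1 plasmid array 1 or 2 (0.0640 and 0.0628). The average over both lines passed in 2 of 8 such fits, those without SKBR3-labelled vector array 1 (adjusted p = 0.00530) or 2 (0.0437); without ZR75-1 vector array 1 or 2 it did not pass (0.0584 and 0.134), nor without any of the 4 plasmid arrays (0.104 to 0.153). The Bacillus spike-in probe sets were high on array 2 of both SKBR3-labelled groups and on ZR75-1 plasmid array 2. Within the high SKBR3-labelled arrays WARS1 changed by 1.38 and within the low ones by 0.72, each 1 array against 1, and within the low ZR75-1 arrays by 0.29.

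None of the other 8 members passed in either line. In the SKBR3-labelled cells all 8 had fitted changes below 0, with a median of -0.30, against a median of -0.01 for all probe sets tested. Signals of the plasmid arrays lay below those of the vector arrays for 7 of 9 members, a state that held for 20.6% of all probe sets, and above them for WARS1 (19.5%). By the call rule, 1 of 9 was higher (0.944% of all probe sets) and 0 were lower (0.048%), and at an unadjusted limma p under 0.05 there were 1 higher (4.96%) and 3 lower (3.82%). In ZR75-1 limma called 0 of 9 in either direction (0.736% higher and 0.784% lower over all probe sets). There 2 were higher (8.35%) and 0 lower (9.61%) at an unadjusted p under 0.05, and 4 were higher without overlap (20.7%) and 0 lower (26.3%).

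Among the class I enzymes, IARS1 and CARS1 lay on opposite sides of their controls in the 2 lines. IARS1, the isoleucine enzyme, had signals of 1017.3 and 1118.7 against 833.2 and 850.7 in ZR75-1, and of 1089.4 and 1029.4 against 1440.5 and 1469.5 in the SKBR3-labelled cells. The plasmid arrays were thus above both vector arrays in ZR75-1 and below both in the other line. The log2 changes were 0.34 ± 0.13 (limma, adjusted p = 0.191) and -0.46 ± 0.13 (adjusted p = 0.218), and their difference of 0.80 ± 0.18 did not pass (adjusted p = 0.0986). CARS1, the cysteine enzyme, had signals of 507.6 and 597.2 against 490.7 and 428 in ZR75-1, and of 742.9 and 687 against 891.4 and 838.9 in the SKBR3-labelled cells. Its changes were 0.26 ± 0.14 and -0.28 ± 0.14 (limma, adjusted p = 0.366 and 0.636), with a difference of 0.54 ± 0.20 (adjusted p = 0.303). The CARS1 change in ZR75-1 was 0.15 without plasmid array 2, 0.17 without vector array 2 and 0.47 with median centring.

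YARS1, the tyrosine enzyme, had signals of 156.4 and 162.3 against 165.3 and 156 in ZR75-1, which overlap. In the SKBR3-labelled cells they were 275.1 and 254.1 against 309.4 and 319, without overlap, at a log2 change of -0.25 ± 0.15 (limma, adjusted p = 0.726). EPRS1, the fused glutamate and proline enzyme, had overlapping signals of 546.4 and 475.4 against 556.5 and 454 in ZR75-1. In the SKBR3-labelled cells its signals of 230.9 and 241.3 lay below the 325.7 and 284.1 of the vector, at -0.37 ± 0.16 (adjusted p = 0.530).

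Of the class II enzymes, NARS1, which charges asparagine, showed the pattern of IARS1. Its signals were 1076.9 and 1019 against 747.9 and 795.4 in ZR75-1, and 605.3 and 597.1 against 693.7 and 805.7 in the SKBR3-labelled cells. The changes of 0.44 ± 0.13 and -0.31 ± 0.13 on the log2 scale did not pass (limma, adjusted p = 0.109 and 0.530), and neither did their difference of 0.76 ± 0.19 (adjusted p = 0.130). The SKBR3-labelled change of NARS1 was -0.21 without vector array 2. Opposite directions without overlap, up in ZR75-1 and down in the SKBR3-labelled cells, were seen for 3 of 9 members and for 4.35% of all probe sets. For the difference between lines limma called 0 of 9 members higher or lower (0.064% and 0.56% of all probe sets), and 3 were higher and 1 lower at an unadjusted p under 0.05 (5.78% and 7.26%). IARS1, NARS1 and CARS1 kept these directions in both lines under every alternative processing run.

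AARS1, the alanine enzyme, had signals of 858.2 and 696 against 736.6 and 667.3 in ZR75-1 and of 179 and 200.5 against 205.6 and 208.7 in the SKBR3-labelled cells. The first pair of groups overlapped and the second did not, but the SKBR3-labelled change was -0.13 ± 0.15 (limma, adjusted p = 0.926). GARS1, the glycine enzyme, had 619.3 and 491.6 against 674.5 and 542.8 in ZR75-1, and 490.3 and 492.8 against 516.9 and 546 in the SKBR3-labelled cells. Its changes of -0.13 ± 0.16 and -0.11 ± 0.16 (limma, adjusted p = 0.727 and 0.955) had 95% intervals of -0.48 to 0.21 and -0.46 to 0.24. SARS1, the serine enzyme, had overlapping signals in both lines, 286.3 and 264 against 288.3 and 252.3 in ZR75-1, and 469.1 and 392.9 against 680.8 and 468.2 in the SKBR3-labelled cells (-0.40 ± 0.19, adjusted p = 0.582). That SARS1 change was -0.13 without SKBR3-labelled vector array 1 and -0.67 without vector array 2.

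**Figure D2:**
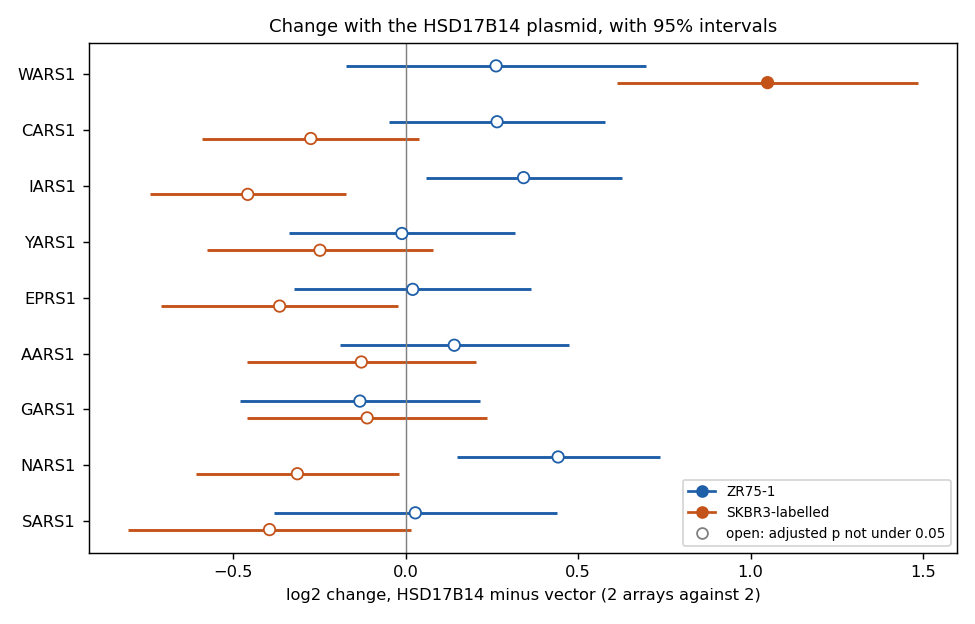
Fitted log2 change with the HSD17B14 plasmid (x axis, HSD17B14 minus vector) for each synthetase in both lines, with bars for the 95% interval of limma and filled points for calls. WARS1 in the SKBR3-labelled cells (1.05) is the filled point; the other 8 members lie left of 0 in that line, from -0.46 to -0.11.

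Averaged over both lines, WARS1 was called among the 9 members, 1 higher (1.22% of all probe sets) and 0 lower (0.288%), and the averages of the other 8 lay between -0.18 for SARS1 and 0.06 for NARS1. The actin 3′/5′ ratio, a measure of RNA integrity, was 2.83 and 2.66 on the ZR75-1 plasmid arrays against 2.03 and 2.02 on their vector arrays. In the SKBR3-labelled cells it was 2.28 and 3.09 against 3.603 and 2.996. The same ratio for GAPDH had the opposite order in ZR75-1, 0.896 and 0.883 with the plasmid against 1.084 and 1.039. In the SKBR3-labelled cells the GAPDH ratio was 0.812 and 0.886 against 0.912 and 0.868. In ZR75-1 the actin ratio differed far more between the plasmids than within duplicates, so a fit with it can hardly separate the 2. With the actin ratio in the model the WARS1 change was -0.03 ± 0.31 in ZR75-1 (limma, adjusted p = 0.988). In the SKBR3-labelled cells it was 1.26 ± 0.26 (adjusted p = 0.0846). IARS1 and NARS1 in ZR75-1 were then 0.43 and 0.54 (adjusted p = 0.627 and 0.587).

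Levels of most members differed between the lines. On the vector arrays 7 of 9 members passed, 3 higher (19.6% of all probe sets) and 4 lower (20.7%) in ZR75-1 than in SKBR3-labelled cells. With both plasmids averaged, 4 arrays against 4, 3 were higher (23% of all probe sets) and 4 lower (26.1%), so that calls were frequent for the genome at large too (49.2% in either direction). AARS1 showed the widest gap, 667.3 to 858.2 on the ZR75-1 arrays and 179 to 208.7 on the others, a 3.72-fold higher level in ZR75-1 (log2 1.89 ± 0.11, limma, adjusted p = 6.44e-08). EPRS1 was 1.89-fold higher in ZR75-1 (0.92 ± 0.11, adjusted p = 2.91e-05), at 454 to 556.5 against 230.9 to 325.7. Neither gene's lines overlapped on any array.

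Members with the opposite order were SARS1, YARS1, CARS1 and IARS1. SARS1 was 1.81-fold lower in ZR75-1 (-0.85 ± 0.13, limma, adjusted p = 2.11e-04), YARS1 1.80-fold lower (-0.85 ± 0.11, adjusted p = 3.64e-05) and CARS1 1.56-fold lower (-0.65 ± 0.10, adjusted p = 2.34e-04), each without overlap of the lines. Lines lay apart on all arrays, 4 against 4, for 2 members higher (19.8% of all probe sets) and 3 lower (22.7%). IARS1 was 1.31-fold lower (-0.39 ± 0.09, adjusted p = 0.00400), but its plasmid arrays overlapped between the lines. On the vector arrays alone the IARS1 difference was -0.79 ± 0.13 (adjusted p = 4.91e-04).

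NARS1 and WARS1 each passed in 1 of these 2 comparisons, and GARS1 in neither. The difference of their plasmid effects between lines did not pass for NARS1 or WARS1 (limma, adjusted p = 0.130 and 0.281), so no dependence on the plasmid was shown. NARS1 did not pass on the vector arrays (0.04 ± 0.13, limma, adjusted p = 0.820) and was 1.34-fold higher in ZR75-1 over both plasmids (0.42 ± 0.10, adjusted p = 0.00295). Its arrays overlapped between the lines, 747.9 to 1076.9 against 597.1 to 805.7. WARS1 was 1.69-fold higher in ZR75-1 on the vector arrays (0.76 ± 0.20, adjusted p = 0.00985), which was 1.09 without SKBR3-labelled vector array 1 and 0.42 without its vector array 2. Neither this fit (adjusted p = 0.0783) nor that without ZR75-1 vector array 1 (0.61, adjusted p = 0.0777) passed. WARS1 also did not pass over both plasmids (0.36 ± 0.14, adjusted p = 0.0512), but 5 of 18 alternatives called it. Among them were the 60th percentile filter (adjusted p = 0.0456), log2(value + 32) (0.0359) and the fits without ZR75-1 vector array 2 (0.0443) or SKBR3-labelled vector array 1 (0.00287). Without SKBR3-labelled vector array 1 the value was 0.53 and without vector array 2 it was 0.20. GARS1 did not pass either way, with a 95% interval of -0.07 to 0.42 over both plasmids. With the actin 3′/5′ ratio in the model 1 member, AARS1, passed on the vector arrays and 5 over both plasmids. The vector-array differences were then -1.03 ± 0.34 for CARS1, 0.98 ± 0.36 for EPRS1 and -0.93 ± 0.31 for IARS1. They were -0.95 ± 0.43 for SARS1, 1.22 ± 0.43 for WARS1 and -1.14 ± 0.36 for YARS1. The main fit gave -0.92, 0.72, -0.79, -1.07, 0.76 and -0.97 in this order, with standard errors of 0.13 to 0.20. The ratio itself was 2.03 and 2.02 on the ZR75-1 vector arrays against 3.603 and 2.996 on the SKBR3-labelled ones.

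**Figure D3:**
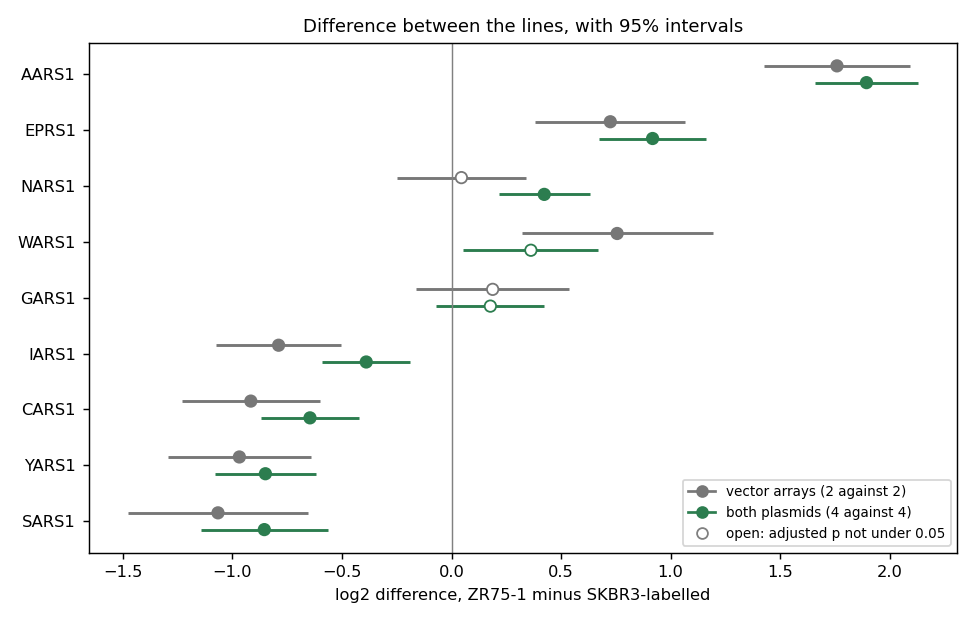
Fitted log2 difference between the lines (x axis, ZR75-1 minus SKBR3-labelled) for each synthetase on vector arrays alone and over both plasmids, with 95% intervals and filled points for calls. AARS1 (1.89) and EPRS1 (0.92) lie on the right and IARS1, CARS1, YARS1 and SARS1 on the left.

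Of the 10 cytosolic synthetases outside the member list, 6 were measured. With the plasmid limma called 0 of them in either line; at an unadjusted p under 0.05 there were 1 higher and 1 lower in ZR75-1 and 0 higher and 1 lower in SKBR3-labelled cells. Their median changes were -0.10 and -0.26. KARS1, the lysine enzyme, had 1574.7 and 1489.2 against 1142.4 and 1015.1 in ZR75-1 and 1236.8 and 1440.4 against 1535.8 and 1780.1 in the SKBR3-labelled cells, the same opposite pattern as NARS1 and IARS1. Its changes of 0.51 ± 0.15 and -0.31 ± 0.15 did not pass (limma, adjusted p = 0.0994 and 0.584), nor did their difference of 0.82 ± 0.21 (adjusted p = 0.135). Between the lines, 5 of the 6 were lower in ZR75-1 over both plasmids (26.1% of all probe sets) and 0 higher (23%). On the vector arrays 3 of the 6 were lower (20.7%) and 0 higher (19.6%). Among those lower over both plasmids were TARS1, the threonine enzyme, at -1.39 ± 0.11 (limma, adjusted p = 8.02e-07), and FARSA. FARSA, a phenylalanine enzyme subunit, was at -0.89 ± 0.16 (adjusted p = 5.20e-04). The valine enzyme VARS1 (-1.22 ± 0.30, adjusted p = 0.00479) and the arginine enzyme RARS1 (-0.85 ± 0.21, adjusted p = 0.00500) had the same order. Arrays of VARS1 and of RARS1 overlapped between the lines, however, and neither gene passed on the vector arrays (limma, adjusted p = 0.140 and 0.215). Of 3 measured mitochondrial synthetases 0 were called with the plasmid by limma, with 1 higher in ZR75-1 at an unadjusted p under 0.05, YARS2 at 1.03 ± 0.36 (adjusted p = 0.163). The tryptophan enzyme of mitochondria, WARS2, had changes of 0.52 ± 0.49 and -0.08 ± 0.49, which did not pass. AIMP1, a scaffold protein of the multi-synthetase complex, was at 0.50 ± 0.21 in ZR75-1 and -0.12 ± 0.21 in SKBR3-labelled cells (adjusted p = 0.246 and 0.969).

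The ATF4 branch and the interferon branch, which are known to act on different synthetase genes, were followed in parallel. Of 17 measured ATF4 targets that make or import amino acids, limma called 0 in either line (in ZR75-1 1 higher and 3 lower, and in SKBR3-labelled cells 1 higher and 2 lower, at an unadjusted p under 0.05), with median changes of -0.17 and -0.14. In ZR75-1 the amino acid transporter SLC7A5 was at -0.65 ± 0.17, the proline synthesis enzyme PYCR1 at -0.86 ± 0.26, the serine hydroxymethyltransferase SHMT2 at -0.47 ± 0.20 and the folate enzyme MTHFD2 at 0.50 ± 0.17 (limma, adjusted p = 0.0723, 0.106, 0.235 and 0.138). ATF4 itself had 616.3 and 709.1 against 483.5 and 484.7 in ZR75-1, and 839.7 and 833.5 against 860.9 and 807.5 in the SKBR3-labelled cells. Its changes were 0.45 ± 0.13 and 0.0049 ± 0.13 (limma, adjusted p = 0.102 and 0.998). Of 16 regulators of the pathway limma called 0 in ZR75-1 (1 higher and 1 lower at an unadjusted p under 0.05), and 1 rose and 1 fell in SKBR3-labelled cells. The riser was EIF2AK2, the double-stranded RNA sensor kinase PKR, which is itself interferon-induced, at 1.28 ± 0.17 (adjusted p = 0.00158), and the other was ATF3, a stress-induced transcription factor, at -0.89 ± 0.17 (adjusted p = 0.0285). PPP1R15A, the phosphatase subunit that reverses the stress signal, was at -0.78 ± 0.21 in ZR75-1 (adjusted p = 0.0822).

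Of 47 measured interferon-induced genes, 30 rose in the SKBR3-labelled cells and 0 fell, with a median of 1.38, and 8 rose in ZR75-1 and 0 fell, with a median of 0.45. The WARS1 changes of 1.05 and 0.26 were smaller than those of 31 of the 47 in each line and larger than the other 16. UBE2L6, the conjugating enzyme of the ubiquitin-like protein ISG15, rose by 2.12 ± 0.13 in SKBR3-labelled cells and 0.66 ± 0.13 in ZR75-1 (limma, adjusted p = 7.53e-06 and 0.0305). CXCL10, a chemokine, rose by 2.93 ± 0.22 and 1.76 ± 0.22, and IFITM1, a membrane protein against virus entry, by 2.17 ± 0.13 and 1.05 ± 0.13. OAS1, a sensor of double-stranded RNA, rose by 2.58 ± 0.16 in SKBR3-labelled cells and was at 0.46 ± 0.16 in ZR75-1 (adjusted p = 0.161). For 17 of the 47 the difference between lines passed with the smaller change in ZR75-1, which WARS1 did not. The list was drawn up with results of these arrays known and is no independent evidence of its direction.

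**Figure D4:**
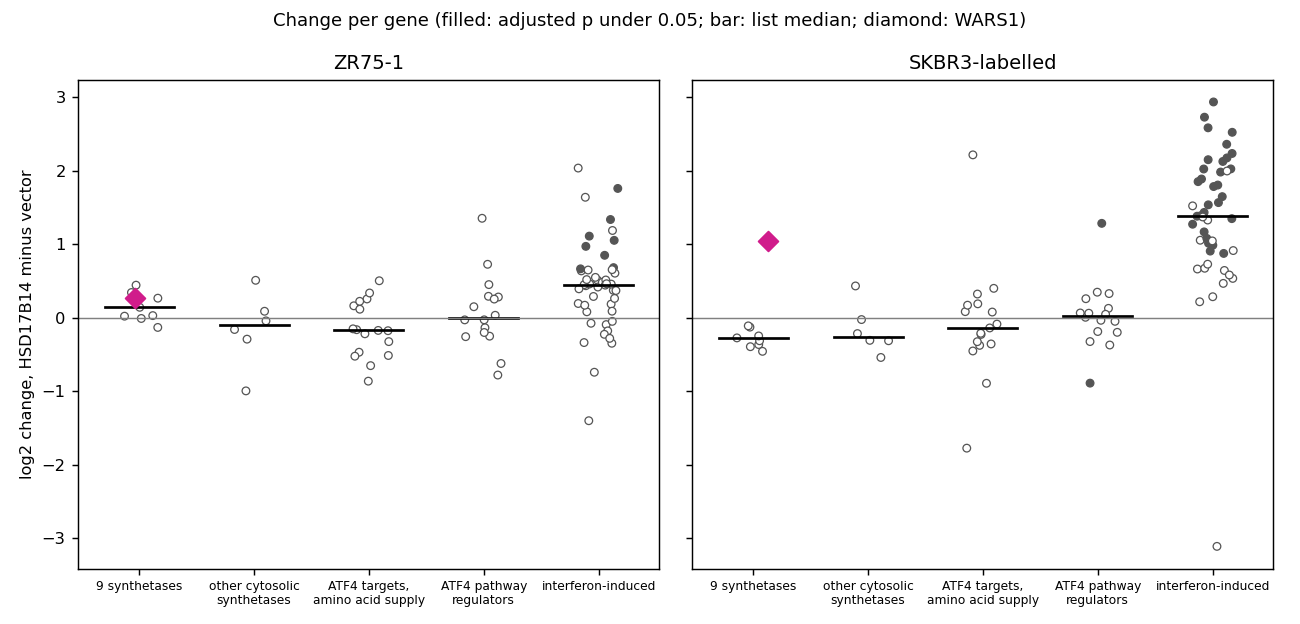
Log2 change with the plasmid (y axis, HSD17B14 minus vector) for the genes of 5 lists in each line, with a bar at the list median. Circles are filled where limma called the gene. WARS1 is a diamond that is filled in both panels, although it was not called in ZR75-1. In SKBR3-labelled cells WARS1 (1.05) lies above the other 8 members and within the spread of the interferon-induced genes, whose median is 1.38.

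The genes whose log2 signal followed WARS1 most closely over the 8 arrays, out of 5551 other genes, were CD209 (Pearson's r = 0.911), SPIN1 (0.902), UBE2L6 (0.897), PSMB9 (0.895) and IFIH1 (0.893). UBE2L6, PSMB9 (an immunoproteasome subunit) and IFIH1 (the RNA sensor MDA5) belong to the interferon response. PSMB9 had signals of 451.2 and 454.8 against 244.5 and 362.9 in ZR75-1 and 419.1 and 394.2 against 106.6 and 93.8 in SKBR3-labelled cells. CD209 is a lectin of dendritic cells, and its signals of 2.4 to 19.9 lay below the filter's threshold (12.1 to 17.6 by array) on 6 of 8 arrays, including all 4 vector arrays. It entered through 1 plasmid array of each line. The 2 arrays farthest from the WARS1 median were the SKBR3-labelled vector arrays (324.9 and 204.8). Without them, and so without that whole group, r was 0.811 for CD209, 0.880 for SPIN1 and 0.652 for UBE2L6. It was 0.384 for PSMB9 and 0.372 for IFIH1. The 8 points share 2 lines and 2 plasmids, and the correlations are a description of them. The other members correlated with WARS1 at r from -0.66 (IARS1) to 0.37 (AARS1). Without the same 2 arrays both ends turned sign, to 0.75 for IARS1 and -0.41 for AARS1. So did CARS1 (-0.48 to 0.77), YARS1 (-0.55 to 0.51), SARS1 (-0.46 to 0.60) and EPRS1 (0.22 to -0.38). NARS1 (0.0096 to -0.065) and GARS1 (0.0074 to -0.18) did as well. The range thus rests on the SKBR3-labelled vector group, and the values without it hold no plasmid contrast for that line.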

How the data were processed

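The deposited values were signal intensities on a linear scale, 1 per probe set and array, which the submitters' processing notes credit to MAS5 (version not given in the sources used here), from 5 ug of total RNA per the labels. The file gives no detection calls, and the arrays' number limits the precision. Of 8793 probe sets, 47 controls were left out; 7840 of the rest carry 1 gene symbol, 388 several and 518 none. Values under 1 were raised to 1 and log2 was taken. Probe sets above the array's 40th percentile on at least 2 arrays, 6251 in all, were fitted with limma 3.58.1 (R 4.3.3) as 4 group means, using eBayes with its trend option; errors are standard errors and a call needs a Benjamini-Hochberg adjusted p under 0.05 over all tested probe sets. The fit was tested on simulated data. No pairing by replicate number was seen over all tested probe sets (correlation of same-numbered deviations -0.04 to 0.06), which does not exclude 1. A gene in a comparison list was represented by its brightest probe set; the rule named all members, up to 4 genes per list by the moderated t of the average plasmid effect (for synthetases also of the line difference) and the 5 genes most like WARS1. Members, lists and tests were chosen with earlier results of these data known. Alternatives were quantile normalization, median centring, other filters, an offset of 32, a common floor of 17.6, a prior without the mean, blocks for replicate number and spike-in level, the actin ratio, each line alone, and leaving out each array. Plots came from matplotlib 3.10.9 (Python 3.11.15). A further promoter motif that was searched is not reported here.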

Additional observations from a re-analysis of the deposited data

Results flagged for a closer look

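In 3 members every plasmid array of ZR75-1 lay above the vector arrays of its line while every plasmid array of the SKBR3-labelled cells lay below theirs. The difference between the line effects (ZR75-1 minus SKBR3-labelled, log2) was 0.54 for CARS1, 0.80 for IARS1 and 0.76 for NARS1. It was tested in limma and did not pass in any of them (adjusted p = 0.303, 0.0986 and 0.130).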

How the results depend on the processing

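No pairing by replicate number was seen, and the replicate block moved no count of called members by over 1.5 times. With it 0, 1, 1 and 0 members passed in ZR75-1, in SKBR3-labelled cells, on average and for the difference between lines. On vector arrays 7 passed and over both plasmids 8, the last with WARS1 added (limma, adjusted p = 0.0286). The 1 call in SKBR3-labelled cells and the 1 on average, both WARS1, became 0 with the prior not dependent on the mean, with the actin ratio and with the common floor; the first also with each line alone, the second also with quantile normalization and with no filter. Leaving out 1 array gave 0 to 1 calls for both, and 6 to 7 on the vector arrays and 7 to 8 over both plasmids. On the vector arrays the actin ratio left 1 of 7 calls, with a larger standard error than the main fit for each member. The causes were not tested. Fits of each line alone give no value for comparisons across lines. Of 990 member values under alternatives, 41 turned sign, none of them a called change, and in 31 a call was lost. In ZR75-1 the actin ratio gave -0.012 for AARS1, -0.14 for EPRS1, -0.043 for SARS1, -0.033 for WARS1 and 0.095 for YARS1, quantile normalization -0.0052 for EPRS1 and 0.039 for YARS1, and median centring 0.071 for GARS1 and 0.19 for YARS1. On average over both lines quantile normalization gave -0.066 for AARS1 and 0.0053 for CARS1, the actin ratio -0.017 for AARS1 and 0.0054 for CARS1, and median centring 0.13 for CARS1, 0.016 for GARS1, 0.081 for IARS1 and 0.0089 for YARS1. The difference between lines was 0.11 for GARS1 with centring and 0.020 for GARS1 with the spike-in block. The vector-array difference was -0.048 for NARS1 with centring and -0.11 for NARS1 with the actin ratio. Without 1 array the ZR75-1 changes ran from -0.011 to 0.29 for AARS1, -0.13 to 0.17 for EPRS1, -0.30 to 0.034 for GARS1, -0.069 to 0.12 for SARS1 and -0.053 to 0.030 for YARS1. The averages ran from -0.070 to 0.081 for AARS1 and -0.064 to 0.053 for CARS1, the difference between lines from -0.19 to 0.15 for GARS1, and the vector-array difference from -0.063 to 0.15 for NARS1. The number of arrays limits the precision.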
